A study of Mus musculus with 8 samples.

Results

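Interferon-stimulated genes are the genes that a cell switches on when type I interferon reaches its receptor, and 42 of them were followed here in the diseased mouse retina. The list was drawn up by gene symbol, with earlier results of these data known. It covers antiviral effectors, sensors of foreign RNA and DNA, and interferon-induced regulators, with the guanylate-binding and immunity-related GTPases left out. Of the 42 symbols, 40 were found among the 25477 genes of the count table and all 40 passed the filter on low counts, which left 16861 genes for testing. The other 2, Mx1 and Mx2, were not analysed here. Polyadenylated RNA was sequenced from whole retina of PD-L1 knockout mice with choroidal neovascularization (4 libraries) and of control mice with choroidal neovascularization, titled wild type (4 libraries). PD-L1, encoded by Cd274, is a surface ligand that restrains immune cells through its receptor PD-1, and choroidal neovascularization is the growth of leaky vessels from the choroid towards the retina. All 8 retinas thus carried the disease model, and no retina without it was analysed here. The labels used here do not give how the neovascularization was induced, the strain or age of the mice, how the knockout was made, or whether each library is a different animal. The p-values therefore rest on the spread among these 8 libraries alone, and that spread may be technical.

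Type I interferons bind a receptor made of Ifnar1 and Ifnar2, and the kinases Jak1 and Tyk2 pass the signal on to the factor ISGF3, which contains Irf9 and Stat2 and binds the interferon-stimulated response element in the promoters of target genes. The products of these genes block viral entry, translation and replication, and some of them sense RNA or feed back on the receptor. In the retina, microglia, Müller glia and other cells can all respond to interferon, and many of the genes also respond to interferon gamma. In bulk tissue, fewer cells of a type and less RNA per cell cannot be told apart.

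The libraries held 34065854 to 36438248 counts in the knockout and 31743404 to 34054268 in the control, so that 1 count was 0.028 to 0.0314 CPM (the unit of all levels below unless stated, counts per library size after TMM scaling). Cd274 had 12, 15, 9 and 11 counts in knockout libraries 1 to 4, against 148, 117, 153 and 165 in control libraries 1 to 4 (exact two-sided permutation test, p = 0.0286, the smallest that 4 against 4 allows). The rod markers that define neural retina summed to 36954 to 54027 CPM in the knockout and 37424 to 48925 CPM in the control. Lens transcripts summed to 2436 CPM in knockout 3 and to 5232 and 1671 CPM in controls 2 and 3, against at most 41.6 CPM in the other 5 libraries. On the first principal component of all tested genes, which held 31.6% of the variance, the knockouts lay between -28.1 and -20.3, controls 1 to 3 between 17.7 and 45.1, and control 4 at -6.95. Xist was between 2730 and 5149 CPM in every library, but Y-linked Kdm5d, a histone demethylase gene, separated the groups, with 963, 452, 577 and 874 counts in the knockouts, against 0, 4, 2 and 0 in the controls. Eif2s3y, also Y-linked, had 0 to 1 counts in the knockouts and 0 to 6 in the controls, and the part of this difference in the results was not tested.

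The stretches shown first are parts of some member promoters that carry the core of the interferon-stimulated response element. This is the sequence through which ISGF3 and interferon regulatory factors are known to act. Promoter windows from RefSeq (assembly GRCm38.p6), running from 250 bases before to 50 bases after an annotated start, were given for 31 of the 40 genes. The core searched was GAAANNGAA on either strand, where N is any base. Each stretch is written 5′ to 3′ on the gene's own strand, and capitals mark the core or its reverse complement, with overlapping matches run together. The stretch of Isg15 lies at chr4:156200846-156200926 (minus strand), that of Bst2 at chr8:71537558-71537632 (minus), that of Ifit1 at chr19:34640750-34640843 (plus), that of Ifit3 at chr19:34583344-34583465 (plus), that of Ifit3b at chr19:34607740-34607861 (plus), that of Ifih1 at chr2:62646329-62646397 (minus) and that of Trim30a at chr7:104465194-104465258 (minus).
Isg15: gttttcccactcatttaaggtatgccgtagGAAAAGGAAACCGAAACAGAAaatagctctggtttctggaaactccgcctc
Bst2: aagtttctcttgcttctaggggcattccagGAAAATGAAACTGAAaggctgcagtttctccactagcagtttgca
Ifit1: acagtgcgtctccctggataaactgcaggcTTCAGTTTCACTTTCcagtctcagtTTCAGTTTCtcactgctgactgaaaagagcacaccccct
Ifit3: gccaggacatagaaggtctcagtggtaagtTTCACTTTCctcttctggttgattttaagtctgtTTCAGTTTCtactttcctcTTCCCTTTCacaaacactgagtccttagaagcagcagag
Ifit3b: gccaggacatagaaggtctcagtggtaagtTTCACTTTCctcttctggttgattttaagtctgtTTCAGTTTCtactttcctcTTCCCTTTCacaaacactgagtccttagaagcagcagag
Ifih1: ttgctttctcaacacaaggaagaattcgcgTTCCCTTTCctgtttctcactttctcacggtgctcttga
Trim30a: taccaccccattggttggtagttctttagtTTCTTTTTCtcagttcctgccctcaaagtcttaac

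Isg15 holds 3 matches that overlap in a single block on the gene's strand, whose first bases lie at positions -78 to -66 from the start. Bst2 holds 2 overlapping matches at -130 and -124, and Ifit1 holds 3 on the other strand between -109 and -84. The stretches of the neighbouring copies Ifit3 and Ifit3b were identical over their 122 bases and hold 3 matches each. Ifih1 and Trim30a are shown with the 1 match that each holds before the start. Slfn8, which was called higher, and Adar, Ddx60, Oas1a, Rsad2 and Trim25, which were not, also hold a match there and are not printed. At least 1 match occurred in the windows of 18 of the 31 genes (58.06%), against 1123 of 13108 other tested genes with a window (8.57%) and 9.71% of 26994 other genes in all. The 18 were 9 of 13 genes called higher and 9 of 18 not called. Oasl2 and Lgals3bp, the members with the smallest adjusted p, hold 0 matches. Asking for 1 more A after the core left 45.16% of the members and 3.46% of the other tested genes, and using only the 250 bases before the start left 41.94% and 7.39%. The gamma-activated site core TTCNNNGAA, an element known from the response to interferon gamma, occurred in 8 of the 31 members (25.81%) and in 8.25% of the other tested genes. Median GC content was 50.17% in the member windows and 59.67% in the windows of other tested genes. Such a match is a description of the letters in these windows, and binding was not measured.

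**Figure D1:**
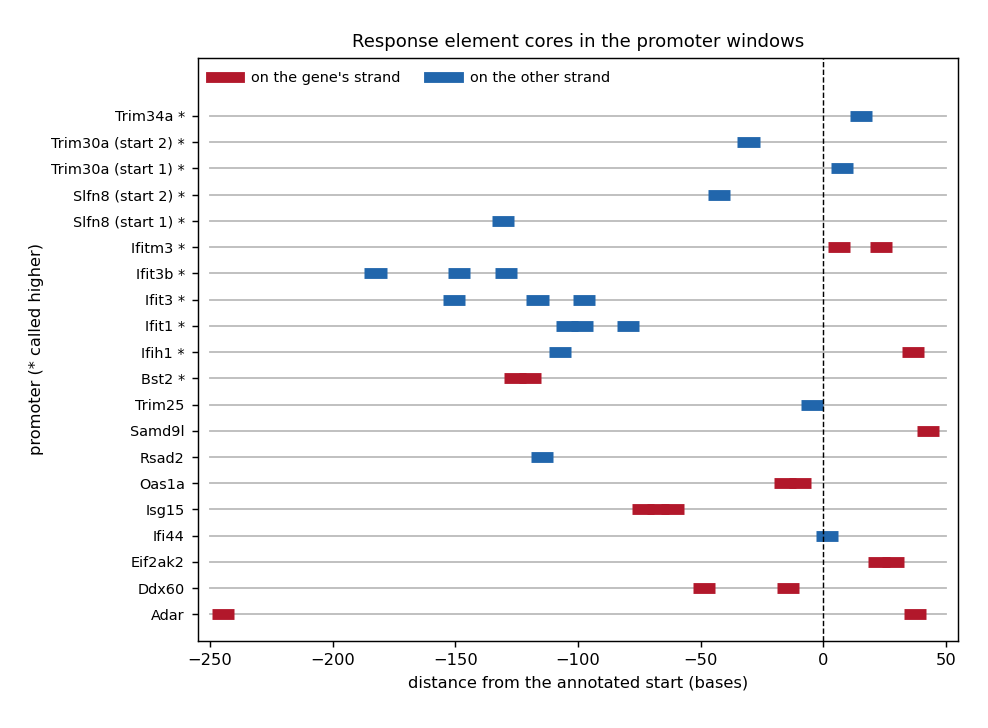
Position of the response element core GAAANNGAA in the member promoters that hold it, with the distance from the annotated start in bases on the horizontal axis and 1 promoter per line (red, match on the gene's strand; blue, on the other strand; asterisk, gene higher in the knockout by the edgeR test). The matches of Isg15, Bst2, Oas1a, Eif2ak2 and Ifit1 include overlapping copies, and 18 genes have at least 1 match.

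In the knockout retinas, transcripts of interferon-stimulated genes were higher as a list. The list was chosen with earlier results of these data known, so the counts below describe it and are no independent test. Of the 40 tested genes, 20 rose and 0 fell (edgeR quasi-likelihood test, Benjamini-Hochberg adjusted p under 0.05 over all 16861 genes), where 1.2% of all tested genes rose and 1.35% fell. All 40 had a positive log2 fold change, as did 8400 of all 16861 tested genes. An unadjusted p under 0.05 was found for 36 of the 40, against 3596 of the 16861. DESeq2 called 29 higher and 0 lower, where it called 3.67% of all tested genes higher. For limma-voom the calls were 14 higher and 0 lower, where it called 1.34% of all tested genes higher. EdgeR, DESeq2 and limma-voom called 3, 3 and 1 of the 4 IFIT genes, and 1, 2 and 1 of the 3 oligoadenylate synthetase genes. They called 3, 4 and 2 of the 5 sensor genes, and 3, 3 and 2 of Parp9, Dtx3l and Parp14. They called 2, 3 and 0 of the 5 ISG15 conjugation genes, and 2, 5 and 2 of 6 genes of no named family. Over the 40 genes the median log2 fold change was 1.02, with a range of 0.15 (Trim25) to 2.09 (Siglec1), while the median over all tested genes was -0.00. All 4 knockout values lay above all 4 control values for 20 of the 40 genes, against 5.19% of all tested genes. Oasl1, Ifi44 and Siglec1 passed the filter on low counts only with the help of knockout libraries, and without them 19 of 37 rose, with a median of 0.99. The count of calls depended on single libraries: 7 genes were called when knockout 1 was left out, 5 when knockout 3 was, 6 when knockout 4 was, and 5, 6 and 5 when control 1, 2 or 3 was. Leaving out knockout 2 gave 24 and leaving out control 4 gave 30. The share of all tested genes that rose moved too, to 10.5% without control 4 and to between 0.361% and 0.812% without any other library. Leaving out knockout 3 and controls 2 and 3, the libraries with lens transcripts, left 3 knockouts and 2 controls and 0 of 40 calls by edgeR, with 29 at an unadjusted p under 0.05 and a median log2 fold change of 0.92. In that fit 7 of 17351 genes rose (0.0403%) and 8 fell, so few calls were made on any genes. How many of the 17351 had an unadjusted p under 0.05 was not counted.

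**Figure D2:**
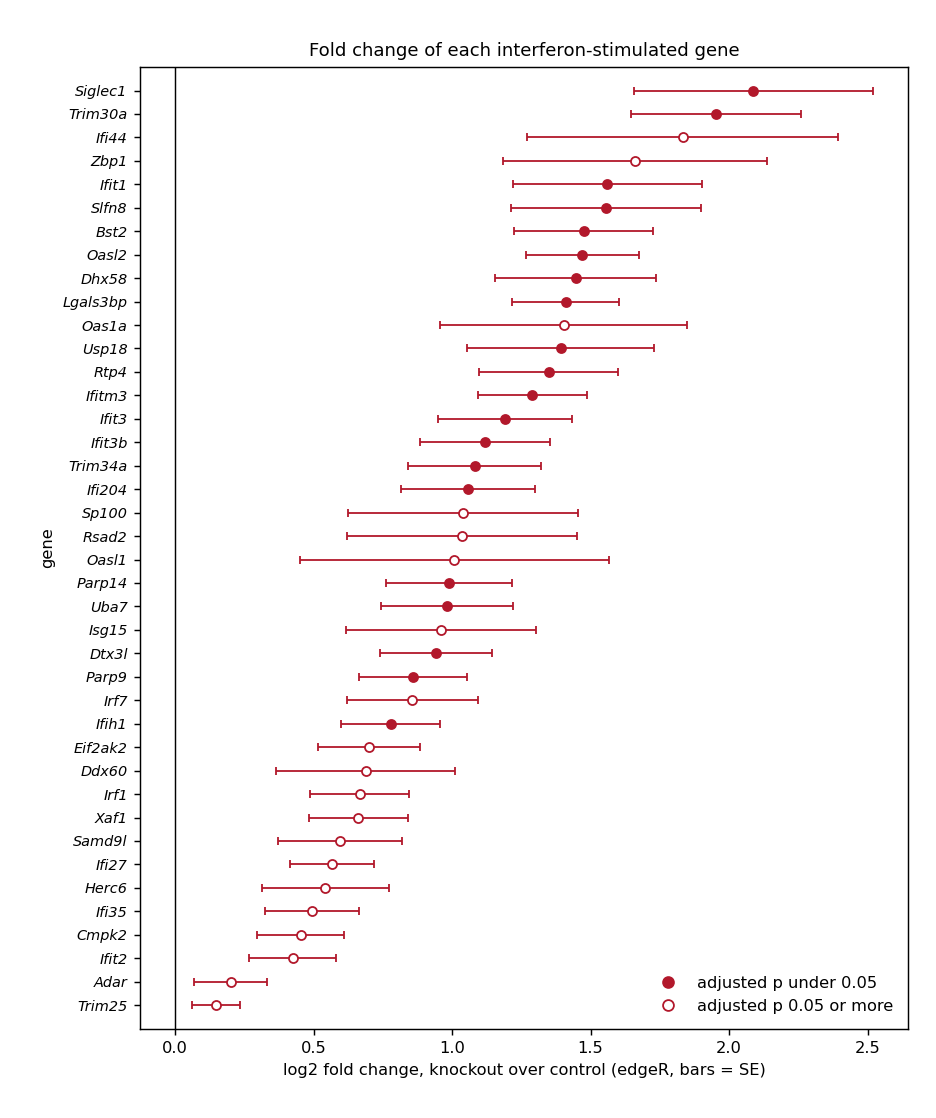
Log2 fold change of each of the 40 genes, knockout over control, on the horizontal axis, with bars of 1 SE (edgeR; filled points, adjusted p under 0.05; open points, 0.05 or more). All 40 points lie above 0, from 0.15 for Trim25 to 2.09 for Siglec1, and several of the genes with the largest folds, such as Ifi44, Zbp1 and Oas1a, have wide bars and open points.

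**Figure D3:**
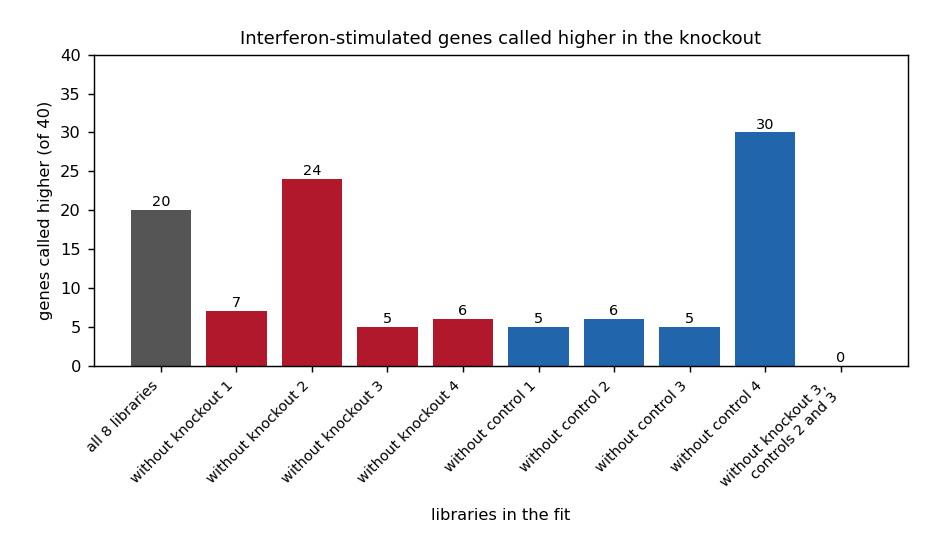
Number of the 40 genes called higher in the knockout (vertical axis, edgeR adjusted p under 0.05) in fits of all 8 libraries, without each library in turn, and without the 3 libraries with lens transcripts. The bars run from 5 to 30 when 1 library is left out, and stand at 20 with all 8 and at 0 without the 3 libraries.

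The 3 genes of restriction at membranes and of viral entry all rose. Bst2 (tetherin, chromosome 8, 71534255 to 71537472) holds budding virus particles at the cell surface. It had 22.9, 9.59, 18.5 and 17.3 CPM in knockouts 1 to 4, against 5.2, 4.84, 8.74 and 5.77 CPM in controls 1 to 4. All knockouts were above all controls, with knockout 2 close to control 3, and the log2 fold change was 1.47 (SE 0.25, adjusted p = 0.00995). Ifitm3 (chromosome 7, 141009590 to 141010744), which blocks fusion of viruses in endosomes, had 33.03, 17.7, 28.2 and 27.6 CPM in the knockouts, against 14.7, 8.92, 10.7 and 9.32 CPM in the controls. Here too the groups did not overlap, and the log2 fold change was 1.29 (SE 0.20, adjusted p = 0.00631). Rtp4, a receptor transporter protein induced by interferon, had 11.5, 4.6, 9.54 and 8.89 CPM in the knockouts and 2.69, 3.55, 3.33 and 3.99 CPM in the controls. Its log2 fold change was 1.35 (SE 0.25, adjusted p = 0.0171), and the call was lost without knockout 3, control 1 or control 3 (adjusted p up to 0.0682).

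Of the 4 IFIT genes, whose products bind foreign RNA and block its translation, 3 rose. Ifit1, which recognises RNA caps that lack a methyl group, had 44.2, 9.73, 26.9 and 28.0 CPM in the knockouts, against 6.96, 7.76, 12.4 and 9.76 CPM in the controls. Knockouts 1, 3 and 4 stood above every control while knockout 2 lay among the controls, and the log2 fold change was 1.56 (SE 0.34, adjusted p = 0.0351). Ifit3, a partner of Ifit1, had 95.8, 31.0, 62.4 and 65.6 CPM in the knockouts and 25.6, 29.4, 30.7 and 26.0 CPM in the controls (log2 fold change 1.19, SE 0.24, adjusted p = 0.0252). Its near copy Ifit3b had 34.5, 12.7, 22.2 and 21.5 CPM in the knockouts and 10.7, 9.39, 12.3 and 9.44 CPM in the controls (log2 fold change 1.12, SE 0.23, adjusted p = 0.0295). In both, knockout 2 lay just above the highest control. Of the 50-base words in the longest transcript of Ifit3, 51.2% also occur in Ifit3b, so reads of these copies may have been split between them and each value is uncertain. Ifit2 had 23.3 ± 5.50 CPM in knockout retinas, against 17.3 ± 1.12 in control retinas (SD, n = 4 each), with a log2 fold change of 0.42 that did not pass (SE 0.16, adjusted p = 0.152). The calls of Ifit1 and Ifit3b were lost without any single library but knockout 2 or control 4 (adjusted p up to 0.106 and 0.0914), and that of Ifit3 when knockout 3, knockout 4, control 1, control 2 or control 3 was left out (up to 0.0833). The 4 genes lie within 99460 bases on chromosome 19, 5.16 Mb from the end of Cd274, the targeted gene. Outside chromosome 19, 17 of 36 genes rose, with a median log2 fold change of 1.00.

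Among the genes of the oligoadenylate synthetase family, whose founding members make the second messenger that activates RNase L, Oasl2 rose. Oasl2 (chromosome 5, 114896926 to 114912245), a relative known in mice as an interferon-induced family member, had 88.2, 40.1, 69.5 and 67.3 CPM in the knockouts, against 25.4, 18.5, 22.2 and 29.5 CPM in the controls. Every knockout was above every control, and the log2 fold change was 1.47 (SE 0.20, adjusted p = 0.00349). Oas1a did not pass, with 2.56 ± 1.31 CPM in knockout retinas, against 0.967 ± 0.266 in control retinas and its log2 fold change was 1.40 (SE 0.45, adjusted p = 0.106), and 57.6% of its 50-base words occur in Oas1g. Oasl1, at 0.723 ± 0.201 CPM in knockout retinas, against 0.356 ± 0.287 in control retinas, came to a log2 fold change of 1.01, which did not pass (SE 0.56, adjusted p = 0.313).

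Of the 5 sensor genes, 3 rose. Ifih1 encodes MDA5, the sensor of long double-stranded RNA, and had 12.9, 8.92, 13.7 and 15.7 CPM in the knockouts, against 6.52, 6.41, 8.59 and 8.31 CPM in the controls (log2 fold change 0.78, SE 0.18, adjusted p = 0.0429). Dhx58 encodes LGP2, a relative that tunes MDA5, and had 7.23, 3.16, 4.37 and 4.66 CPM in the knockouts, against 2.07, 1.07, 1.94 and 2.04 CPM in the controls (log2 fold change 1.45, SE 0.29, adjusted p = 0.0244). Ifi204, a DNA-binding pyrin and HIN domain protein, had 4.01, 2.58, 3.25 and 2.74 CPM in the knockouts, against 1.82, 1.44, 1.48 and 1.3 CPM in the controls (log2 fold change 1.06, SE 0.24, adjusted p = 0.0415). The groups did not overlap for these 3 genes. The calls of Ifih1 and Dhx58 were lost without any single library but knockout 2 or control 4 (adjusted p up to 0.145 and 0.0693), and that of Ifi204 without any but control 4 (up to 0.135). Ifi204 shares 30.2% of its 50-base words with other genes, most of them with Ifi211, so its count is uncertain. Zbp1, a sensor of Z-form nucleic acid, had 4.8, 0.898, 2.04 and 2.91 CPM in the knockouts, against 0.783, 0.471, 0.677 and 1.42 CPM in the controls. Its log2 fold change of 1.66 (SE 0.48, adjusted p = 0.0795) did not pass, with knockout 2 below control 4. Ddx60, an RNA helicase, came to a log2 fold change of 0.69, which did not pass (SE 0.32, adjusted p = 0.241), with 23.7 CPM in knockout 1 and 6.63 to 10.3 CPM in the other knockouts, against 6.77 to 9.67 CPM in the controls.

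Neither enzyme that acts on double-stranded RNA passed the edgeR test, and 1 of them had an unadjusted p under 0.05. DESeq2 called 1 of these 2 genes and limma-voom 0. Eif2ak2 encodes PKR, the kinase that halts translation on meeting double-stranded RNA, and had 35.3, 16.6, 26.3 and 26.1 CPM in the knockouts, against 17.4, 13.6, 15.7 and 17.5 CPM in the controls. Its log2 fold change was 0.70 (SE 0.19, adjusted p = 0.0637), and knockout 2 lay among the controls. Adar, the adenosine deaminase that edits double-stranded RNA, had 138, 109, 107 and 105 CPM in the knockouts, against 91.5, 85.8, 92.6 and 130.2 CPM in the controls. The log2 fold change was 0.20 with an interval of -0.09 to 0.49 (95%, adjusted p = 0.4). The exons of Adar overlap those of Chrnb2 on the other strand over 1365 bases, and whether the counting was stranded is not stated.

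**Figure D4:**
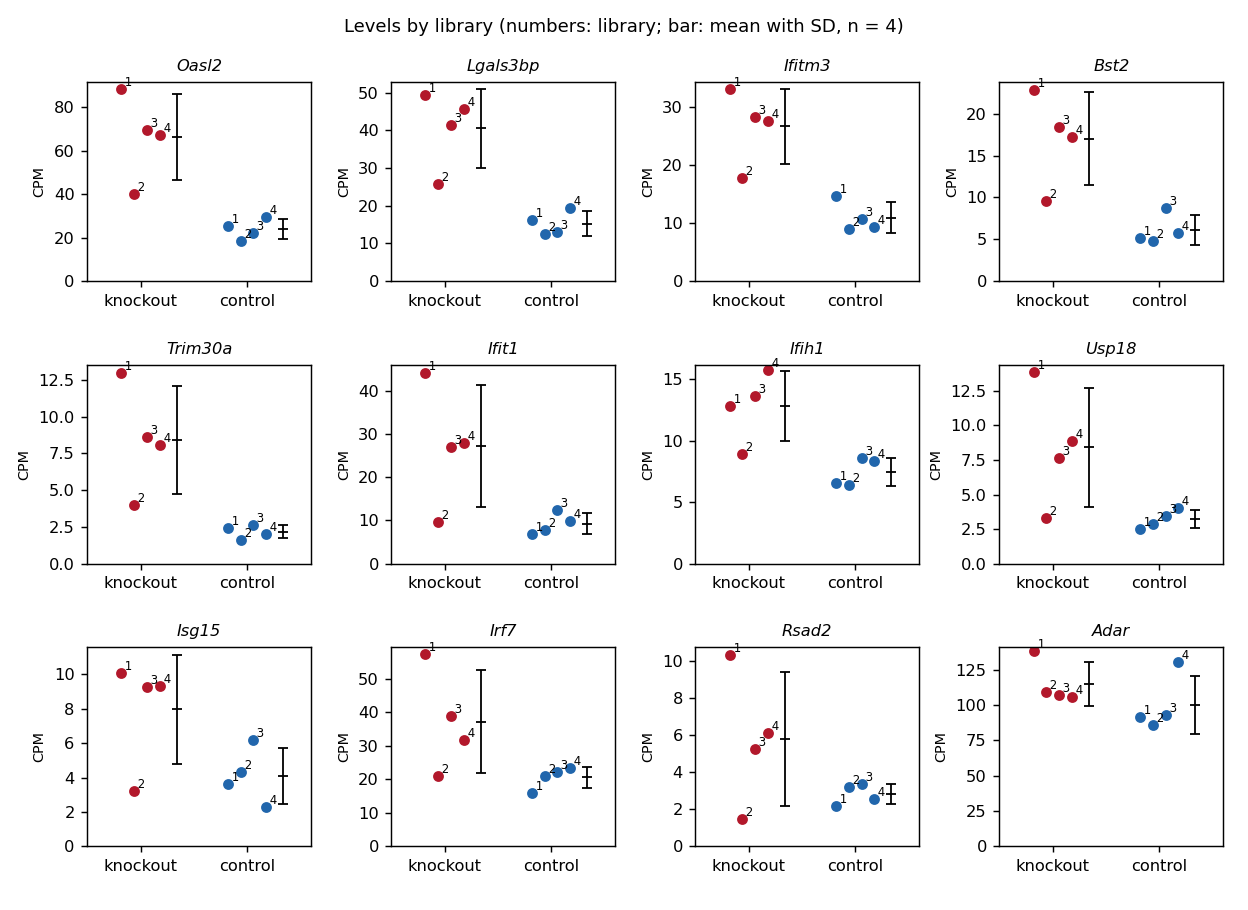
Level of 12 genes in each library in CPM (vertical axes from 0), with knockout libraries in red left of control libraries in blue, numbers naming the library and bars giving mean and SD (n = 4). For Oasl2, Lgals3bp, Ifitm3, Bst2, Trim30a and Ifih1 every knockout lies above every control, while for Ifit1, Usp18, Isg15, Irf7 and Rsad2 knockout 2 lies among or below the controls, and for Adar control 4 lies among the knockouts.

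Isg15 is the small ubiquitin-like protein that interferon attaches to other proteins. It had 10.1, 3.24, 9.23 and 9.32 CPM in the knockouts, against 3.63, 4.3, 6.16 and 2.28 CPM in the controls. Knockouts 1, 3 and 4 were above every control, knockout 2 was below 3 of the 4 controls, and the log2 fold change of 0.96 did not pass (SE 0.34, adjusted p = 0.139). Of the 4 other genes of ISG15 conjugation, Uba7 and Usp18 rose by edgeR. Of the 5 genes together, DESeq2 called 3 and limma-voom 0. Uba7, the enzyme that activates ISG15, had 8.16, 4.49, 6.07 and 5.23 CPM in the knockouts, against 3.04, 2.04, 3.76 and 3.28 CPM in the controls (log2 fold change 0.98, SE 0.24, adjusted p = 0.0489). Usp18, which removes ISG15 and restrains the interferon receptor, had 13.8, 3.3, 7.61 and 8.89 CPM in the knockouts, against 2.51, 2.86, 3.45 and 3.99 CPM in the controls (log2 fold change 1.39, SE 0.34, adjusted p = 0.0486). For Usp18 the groups overlapped through knockout 2. Uba7 lost its call without any single library but control 4 (adjusted p up to 0.147), and Usp18 without any but knockout 2 or control 4 (up to 0.136). The ligases did not pass: Herc6, the main ISG15 ligase of mice, came to a log2 fold change of 0.54, which did not pass (SE 0.23, adjusted p = 0.198), and Trim25, also a ligase for the RNA sensor RIG-I, of 0.15 (SE 0.09, adjusted p = 0.343).

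The PARP9, DTX3L and PARP14 genes, neighbours on chromosome 16 whose products add ADP-ribose or ubiquitin to proteins, rose together. Parp9 had 25.7, 12.8, 17.2 and 21.4 CPM in the knockouts, against 9.75, 9.11, 10.4 and 13.3 CPM in the controls (log2 fold change 0.86, SE 0.20, adjusted p = 0.0408). Dtx3l, its ubiquitin ligase partner, had 16.4, 8.25, 11.8 and 14.9 CPM in the knockouts, against 6.24, 5.71, 6.68 and 8.13 CPM in the controls (log2 fold change 0.94, SE 0.20, adjusted p = 0.0335). Parp14, an ADP-ribosyltransferase, had 33.8, 16.04, 25.9 and 23.2 CPM in the knockouts, against 13.1, 7.91, 12.8 and 16.0015 CPM in the controls (log2 fold change 0.99, SE 0.23, adjusted p = 0.0425). In all 3 genes knockout 2 was close to control 4, just above it for Dtx3l and Parp14 and below it for Parp9. All 3 calls were lost without any single library but knockout 2 or control 4, with adjusted p up to 0.117, 0.099 and 0.139 for Parp9, Dtx3l and Parp14. Parp9 and Dtx3l are transcribed from opposite strands and their exons overlap over 458 bases.

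Of the TRIM and nuclear body genes, Trim30a and Trim34a rose. Trim30a (chromosome 7, 104409025 to 104465193), which in mice dampens Toll-like receptor signalling, had 13.0, 4.00, 8.59 and 8.06 CPM in the knockouts, against 2.41, 1.63, 2.65 and 1.98 CPM in the controls. The groups did not overlap, and the log2 fold change was 1.95 (SE 0.31, adjusted p = 0.0073). Trim34a had 7.71, 3.79, 6.1 and 5.54 CPM in the knockouts, against 2.44, 2.29, 2.62 and 3.58 CPM in the controls (log2 fold change 1.08, SE 0.24, adjusted p = 0.0372). It lost the call without any single library but knockout 2 or control 4 (adjusted p up to 0.124), and 41.3% of its 50-base words occur in Trim34b. Sp100, a protein of nuclear bodies, had 3.20 ± 1.43 CPM in knockout retinas, against 1.55 ± 0.8288 in control retinas (log2 fold change 1.04, SE 0.42, adjusted p = 0.179).

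Slfn8, of the Schlafen family, was the 1 gene to pass in a group of 4 further effectors, with Rsad2, Cmpk2 and Samd9l. It had 2.91, 1.51, 1.96 and 2.77 CPM in the knockouts, against 1.1, 0.534, 0.554 and 0.917 CPM in the controls (log2 fold change 1.56, SE 0.34, adjusted p = 0.0368). The groups did not overlap, but the call was lost without any single library but knockout 2 or control 4 (adjusted p up to 0.114). Rsad2 encodes viperin, which makes a chain-terminating nucleotide, and had 10.3, 1.48, 5.26 and 6.09 CPM in the knockouts, against 2.16, 3.2, 3.36 and 2.54 CPM in the controls. Knockout 2 was the lowest of all 8 libraries for Rsad2, and the log2 fold change of 1.04 did not pass (SE 0.41, adjusted p = 0.179). Cmpk2, the neighbouring nucleotide kinase gene, came to a log2 fold change of 0.45, which did not pass (SE 0.16, adjusted p = 0.129), and Samd9l, an inhibitor of translation, of 0.59 (SE 0.22, adjusted p = 0.158).

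The transcription factors of the list, Irf1 and Irf7, did not pass the edgeR test or limma-voom, while DESeq2 called both, and both had an unadjusted p under 0.05. Irf7, which amplifies interferon production, had 57.4, 21.1, 38.8 and 31.8 CPM in the knockouts, against 15.98, 20.9, 22.1 and 23.4 CPM in the controls (log2 fold change 0.86, SE 0.24, adjusted p = 0.0711). Irf1, which responds to both interferon types, had 13.3, 9.41, 11.1 and 9.74 CPM in the knockouts, against 7.96, 5.46, 5.6 and 8.4 CPM in the controls (log2 fold change 0.67, SE 0.18, adjusted p = 0.0671). The groups did not overlap for Irf1, and overlapped for Irf7 through knockout 2.

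Among the remaining 6 genes, Lgals3bp and Siglec1 rose. Lgals3bp (chromosome 11, 118392747 to 118401959), a secreted glycoprotein that binds galectins, had 49.4, 25.7, 41.3 and 45.6 CPM in the knockouts, against 16.1, 12.5, 13.0 and 19.4 CPM in the controls. Every knockout exceeded every control, and the log2 fold change was 1.41 (SE 0.19, adjusted p = 0.00349). Siglec1, a sialic acid receptor of macrophages, had 1.78, 0.666, 1.34 and 1.86 CPM in the knockouts, against 0.313, 0.251, 0.246 and 0.503 CPM in the controls (log2 fold change 2.09, SE 0.43, adjusted p = 0.0276). It had the largest fold change of the 40 at the lowest level per length, and its call was lost without any single library but knockout 2 or control 4 (adjusted p up to 0.0993). Ifi44 had 3.93, 0.55, 2.99 and 1.17 CPM in the knockouts, against 0.251, 0.691, 0.585 and 0.887 CPM in the controls, and its log2 fold change of 1.83 did not pass (SE 0.56, adjusted p = 0.0958). Ifi27 and Xaf1 did not pass either, with log2 fold changes of 0.57 (SE 0.15, adjusted p = 0.0663) and 0.66 (SE 0.18, adjusted p = 0.0684), although their groups did not overlap. Ifi35 came to a log2 fold change of 0.49, which did not pass (SE 0.17, adjusted p = 0.126).

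Only Oasl2, Bst2, Ifitm3, Trim30a and Lgals3bp were called in the full fit and in all 8 fits that left out 1 library, with adjusted p of at most 0.0195, 0.0469, 0.03, 0.03 and 0.0195. Without the 3 libraries with lens transcripts none of the 5 was called, with log2 fold changes of 1.25, 1.603, 1.13, 1.93 and 1.19 and adjusted p of 0.142, 0.116, 0.249, 0.206 and 0.142 in the same order. Some of the genes that did not pass gained a call when 1 library was left out. Ifit2, Oas1a and Rsad2 did so without knockout 2 (adjusted p = 0.046, 0.0179 and 0.0314). Cmpk2, Adar, Irf1, Sp100, Ifi27, Ifi44 and Xaf1 did so without control 4 (adjusted p from 0.00825 to 0.0323). Of all tested genes, 0.751% rose without knockout 2 and 10.5% without control 4. Zbp1, Eif2ak2 and Irf7 passed without either of these libraries in turn, and Oasl1, Samd9l, Ddx60, Isg15, Herc6, Trim25 and Ifi35 passed in none of the 8 fits.

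The knockout libraries differed among themselves more than the controls did. Knockout 1 was the highest of all 8 libraries for 37 of the 40 genes, and knockout 2 was the lowest knockout for 38. The median excess over the control mean, in log2(CPM + 0.1), was 1.45 for knockout 1, 0.24 for knockout 2, 1.05 for knockout 3 and 1.02 for knockout 4. Knockouts 1, 3 and 4 all stood above every control for 37 genes, whereas knockout 2 did so for 21. The first count leaves out the knockout that was mostly lowest, so it asks for less than a count with all knockouts. For neither count was the share over all tested genes computed. Relative to the control mean, knockout 2 had a median ratio of 1.19 (0.524 for Rsad2 to 2.03 for Siglec1) and lay below the control mean for 9 genes. The ratio of knockout 1 to knockout 2 was 7.14 for Ifi44, 6.96 for Rsad2, 5.54 for Oas1a, 5.35 for Zbp1 and 4.54 for Ifit1. It was 1.26 for Adar and 1.11 for Trim25, the genes with the smallest log2 fold changes (0.20 and 0.15). In knockout 2, Ifi44, Rsad2, Oas1a and Zbp1 had only 19, 51, 22 and 31 counts. The SD of log2 CPM was larger in the knockout for 33 of the 40 genes. The median SD over the genes was 0.46 in the knockout and 0.28 in the control, against 0.16 in the knockout and 0.21 in the control over all tested genes.

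**Figure D5:**
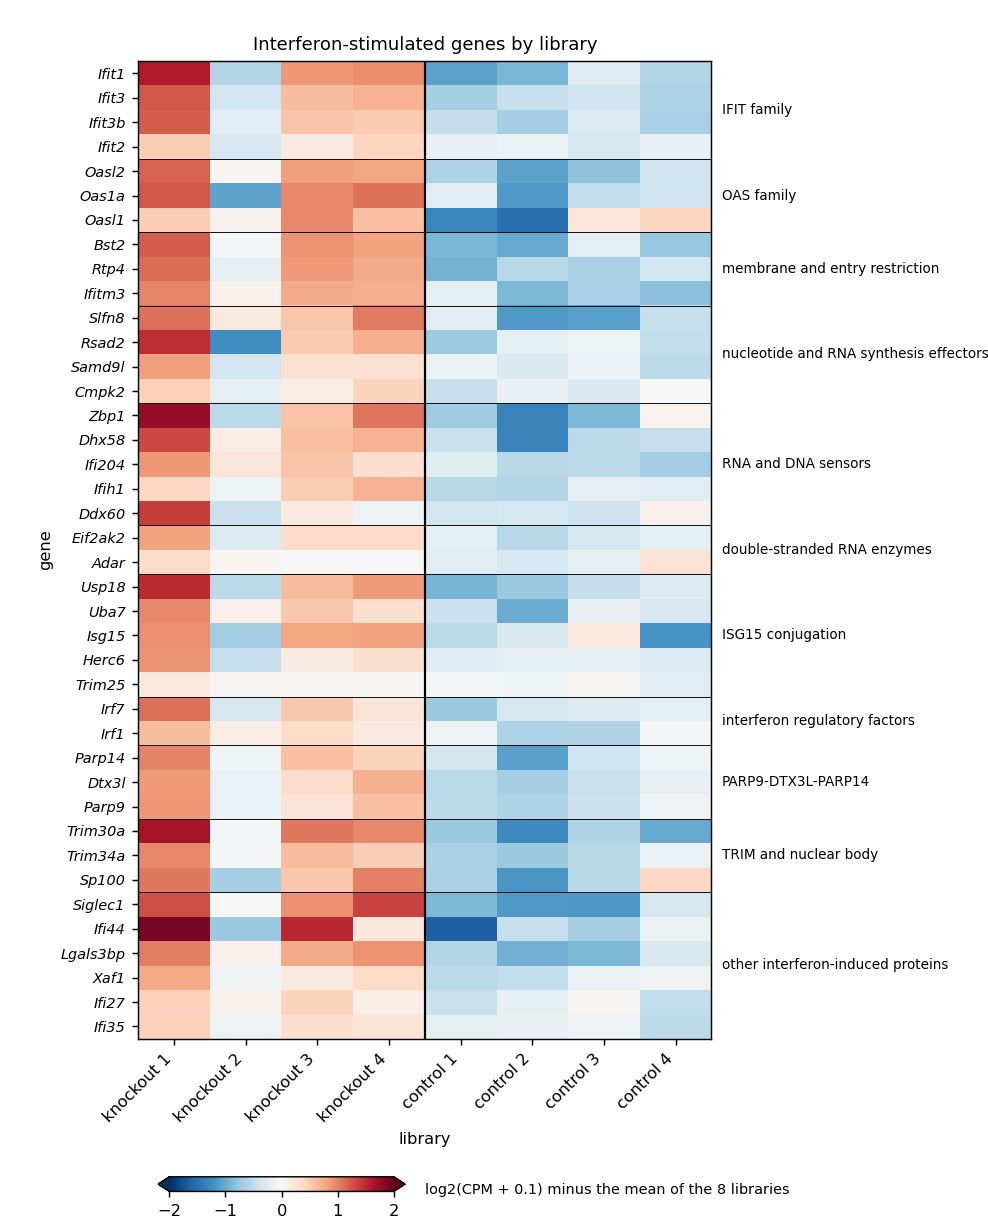
Deviation of log2(CPM + 0.1) of each gene from its mean over the 8 libraries (colour), with the knockout libraries left of the control libraries and genes grouped by role. Knockout 1 is the highest library for 37 of the 40 genes, and knockout 2 is paler than the other knockouts in nearly every row.

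From library to library the genes moved together closely within the knockout group and only weakly within the control group. Over the 780 pairs of genes, the median Pearson correlation of deviations from the group mean was 0.70 across the 8 libraries, and 97.3% of pairs were above 0. The median was 0.91 among the 4 knockout libraries and 0.25 among the 4 control libraries. These correlations are descriptions over few libraries that share depth and scaling across genes, and no such median was computed for other genes. Eif2ak2, Usp18 and Ifit1 had the highest mean correlation with the others (0.78, 0.77 and 0.76), and Trim25, Ifi27, Oasl1 and Adar the lowest (0.22, 0.32, 0.33 and 0.40). The 5 genes outside the list whose levels over the 8 libraries were most like the member mean were Pmfbp1, Shisa5, Irgm1, Ddx58 and Socs3, with Pearson r of 0.98, 0.97, 0.97, 0.97 and 0.97.

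Levels can be compared between genes only per length, for which the deposited FPKM were used. Ifitm3 had the highest level in both groups, with 41.5 ± 10.6 FPKM in the knockout and 16.7 ± 4.24 FPKM in the control (SD, n = 4 each). Adar was next in the control order, with 16.6 ± 2.62 FPKM in the knockout and 14.2 ± 2.91 FPKM in the control, but it held only rank 7 in the knockout. Ifit3 held rank 2 in the knockout, with 24.1 ± 10.5 FPKM in the knockout and 10.3 ± 0.860 FPKM in the control. The neighbours Oasl2 and Bst2 did not differ beyond their spread in either group, at 21.3 ± 6.73 and 21.3 ± 7.24 FPKM in the knockout and 7.58 ± 1.52 and 7.54 ± 2.18 FPKM in the control. The lowest levels were those of Siglec1, with 0.219 FPKM in the knockout and 0.04999 FPKM in the control, and Oasl1, with 0.321 FPKM in the knockout and 0.156 FPKM in the control. In the control, 12 of the 40 genes were under 1 FPKM and 4 were over 10 FPKM.

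The interferons themselves were at or near 0. Of 21 interferon genes listed, 5 were in the table and none had enough counts to test. Ifnb1 had 1, 0, 0 and 7 counts in the knockouts, against 0 in all 4 controls, and Ifng had 4 counts in knockout 3 and 0 in the other 7 libraries. A count of 0 allows up to 0.0942 CPM (3 counts in the smallest library, counting error only), and a product made by few cells was not detectable at this depth.

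Among the receptor and transducer genes, Irf9, the DNA-binding subunit of ISGF3, rose, and the median log2 fold change of the 12 genes tested was 0.18. Irf9 had 59.8, 35.6, 44.9997 and 40.6 CPM in the knockouts, against 30.9, 30.2, 31.99 and 30.1 CPM in the controls (log2 fold change 0.55, SE 0.13, adjusted p = 0.0494). Irf9 is itself interferon-induced, and its groups did not overlap. It lost its call when any library but knockout 2 or control 4 was left out (adjusted p up to 0.147). Stat2, another subunit of ISGF3, came to a log2 fold change of 0.21, which did not pass (SE 0.15, adjusted p = 0.429), and the receptor chain Ifnar1 of 0.06 (SE 0.07, adjusted p = 0.672).

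None of the 14 tested genes of the sensing pathway upstream of interferon passed by edgeR or limma-voom. DESeq2 called 2 of the 14 higher, where it called 3.67% of all tested genes higher. By edgeR 6 of the 14 had an unadjusted p under 0.05, where 3596 of all 16861 tested genes did. Ddx58, which encodes RIG-I, had 18.5 ± 6.83 CPM in knockout retinas, against 10.1 ± 1.87 in control retinas (log2 fold change 0.88, adjusted p = 0.0649). Irf5 had 2.78 ± 0.425 CPM in knockout retinas, against 1.57 ± 0.461 in control retinas (log2 fold change 0.82, adjusted p = 0.112). Of 66 other interferon-stimulated genes tested, a list that also holds Irf9, 10 rose and 0 fell, where 1.2% of all tested genes rose. Of the 66, 34 had an unadjusted p under 0.05, and the median log2 fold change was 0.55. DESeq2 called 21 of them higher and 1 lower, and limma-voom 9 higher and 0 lower. Of all tested genes, DESeq2 called 3.67% higher and limma-voom 1.34%. The smallest adjusted p belonged to Ly6e, an inhibitor of viral entry, with 50.9 ± 5.34 CPM in knockout retinas, against 24.8 ± 4.19 in control retinas (log2 fold change 1.04, SE 0.12, adjusted p = 0.00129). Shisa5, Tor3a and Lgals9 followed, with log2 fold changes of 1.02, 0.96 and 1.15. Ly6e, Shisa5 and Tor3a kept their calls in all 8 fits that left out 1 library, and Lgals9 lost its call when knockout 3 or control 3 was left out (up to 0.0645). Over the 88 tested genes of the receptor, sensing and further interferon-stimulated lists, 10 rose, where 1.2% of all tested genes did. The count was 3 without knockout 3, 4 without control 3, and 5 without any one of knockouts 1 and 4 and controls 1 and 2. In those fits 0.361% to 0.812% of all tested genes rose. The count was 13 without knockout 2 and 22 without control 4, where 0.751% and 10.5% of all tested genes rose. Leaving out the libraries with lens transcripts left 0 called by edgeR, in the fit that called 0.0403% of all genes higher.

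Markers of other cells were set beside these values. The 19 markers of microglia and macrophages summed to 244.7 to 312 CPM in the knockout and 138 to 216 CPM in the control. These sums did not overlap between the groups. Of the 19 markers 8 rose, where 1.2% of all tested genes did. Knockout 2, the lowest knockout for the interferon-stimulated genes, also had the lowest microglial sum among the knockouts. The sum of knockout 1, the highest library for most of these genes, was 277 CPM, below knockouts 3 and 4 (310 and 312 CPM). Control 1, with 216 CPM, had the highest sum among the controls. The 9 Müller glia markers summed to 3807 to 5193 CPM in the knockout and 3581 to 4433 CPM in the control, and 2 of them rose. Knockout 1, the highest library for 37 of the genes, had the lowest Müller glia sum of the knockouts. Endothelial markers summed to 285 to 311 CPM in the knockout and 215 to 296 CPM in the control. Red blood cell markers summed to 1.68 to 4.03 CPM in the knockout and 10.1 to 14.5 CPM in the control. Of these markers 4 of 4 tested fell, where 1.35% of all tested genes did. The 12 lymphocyte markers summed to 0.714 to 1.58 CPM in the knockout and 0.689 to 0.858 CPM in the control, and Cd3e of T cells had 0 to 5 counts per library. Of 7 markers of plasmacytoid dendritic cells, 5 were in the table. They summed to 303 to 340.1 CPM in the knockout and 216 to 358 CPM in the control, nearly all of it Pacsin1. The sum is thus the level of this 1 gene and gives no amount of these cells. Whether Pacsin1 marks them in retina was not tested. Neither of the 2 that could be tested, Pacsin1 and Irf8, passed by edgeR. Both had an unadjusted p under 0.05, as did 3596 of all 16861 tested genes. The other 3 were near 0: Ccr9 had 0 to 4 counts in the knockouts and 0 in the controls, Spib had 1 to 4 in the knockouts and 0 to 3 in the controls, and Cox6a2 had 1 to 6 in the knockouts and 0 to 14 in the controls. The part of these cells in the differences was not tested.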

How the data were processed

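Polyadenylated RNA of 8 mouse retina samples (4 PD-L1 knockout, 4 control) was isolated by TRIzol and turned into libraries (VAHTS Universal V6 kit), per the labels' protocols. Per the submitters' processing notes, fastp, HISAT2 and HTSeq were used with mm10. For versions, gene annotation and strand setting, nothing is given in the sources used here. The deposited table holds the authors' whole read counts per gene, not normalized. The FPKM deposited by the authors are those counts per library total and 1 fixed length per gene. Columns were matched to samples by title.

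Counts were tested with edgeR 4.0.16 in R 4.3.3: TMM factors, filterByExpr (minimum count 10, minimum total 15), a quasi-likelihood fit of knockout against control without covariates, and Benjamini-Hochberg adjustment over 16861 genes with a threshold of 0.05. Log2 fold changes are knockout over control. The SE is the absolute log2 fold change over the square root of F. Values are mean ± SD over 4 libraries. With 31743404 to 36438248 counts per library, levels under 1 CPM rest on few reads, and limits cover counting error only. Microglial and other marker lists were summed in CPM. No libraries were identical. Positions and promoters are from RefSeq (GRCm38.p6), matched by Entrez identifier or symbol. Of the 38 member windows, 33 continue into a transcript of their gene. The script was tested on simulated counts.

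The members and all gene lists were chosen with earlier results of these data known. Per-library values are given for genes past the threshold and for Isg15, Irf1, Irf7, Eif2ak2 and Adar. Zbp1, Rsad2 and Ifi44 were added after their values were seen. Of each pathway list, the genes with the smallest p are named, except that some genes are not reported here, and Stat2 and Ifnar1 were added after their values were seen. Alternatives were RLE, upper quartile and library-size scaling, no filter or 1 CPM in at least 4 libraries, DESeq2 1.42.0, limma-voom (limma 3.58.1), robust dispersions, the title number as a block, each library left out, and the libraries with over 100 CPM of lens transcripts left out.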

Additional observations from a re-analysis of the deposited data

Results flagged for a closer look

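In 80 groups of 4 values (40 genes in 2 groups), 5 held a library whose gap to the nearest of the others took up more of the group's range than Dixon's test allows at 95%, where chance gives about 1 in 20. Isg15 stood at 3.244 CPM in knockout 2, against 9.235 to 10.06 CPM in the other knockouts. Adar stood at 137.9 CPM in knockout 1, against 105.3 to 109.4 CPM in the other knockouts, and at 130.2 CPM in control 4, against 85.76 to 92.64 CPM in the other controls. Ddx60 stood at 9.672 CPM in control 4, against 6.773 to 7.097 CPM in the other controls. Dhx58 stood at 1.068 CPM in control 2, against 1.94 to 2.068 CPM in the other controls.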

How the results depend on the processing

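All tested members kept a positive log2 fold change under every alternative run, and their median log2 fold change ran from 0.83 without knockout 1 to 1.18 without knockout 2. The number called higher was 20 of 40 with all libraries and the main settings, where 1.2% of all tested genes rose. It was 20 with RLE or upper quartile scaling (1.2% and 1.31% of all tested genes) and 18 with library size only (1.23%). With no filter on low counts it was 27 (1.32%), and with 1 CPM asked in at least 4 libraries 17 of 37 (1.34%). It was 29 with DESeq2 (3.67%, and 1 further member had no adjusted p), 14 with limma-voom (1.34%) and 16 with robust dispersions (1.46%). Leaving out 1 library gave 5 to 30 calls among the members and 3 to 23 among the other pathway genes. The 23, without control 4, were 22 higher and 1 lower. With all libraries 10 of those 88 other genes were called. The share of all tested genes that rose ran from 0.361% without knockout 3 to 10.5% without control 4. Of the other pathway genes, 18 were called with no filter and 24 with DESeq2, where 1.32% and 3.67% of all tested genes rose. Leaving out the 3 libraries with lens transcripts left 0 members and 0 other pathway genes called, in a fit of 3 against 2 libraries in which 7 of 17351 genes rose. The cause of these differences was not tested. The title numbers did not pair the libraries: deviations of libraries with the same number correlated at 0.21, -0.04, 0.12 and 0.01, and 1 of 4 correlated best with its own number. With the number as a replicate block, 15 of 40 members were called, where 0.718% of all tested genes rose. Among the members 6 calls were lost (Ifit1, Ifit3, Ifi204, Uba7, Usp18 and Trim34a) and Eif2ak2 was gained (adjusted p = 0.0461, edgeR). Depth limits Siglec1, Oasl1, Ifi44, Slfn8, Zbp1 and Oas1a, whose control means were under 1 CPM.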
